A study of Mus musculus with 2 samples.

Results

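*Penk*, *Prss2*, *Ppp2r2c*, *A930011G23Rik*, *Dscam*, *Wfdc18*, *Hgsnat*, *Ctla2a* and *Cd7* are 9 of the 27998 genes listed for 2 droplet single-cell RNA libraries of islet T cells, and all 9 were found by their symbols. They were chosen because they were scarce in CD137-deficient CD8 T cells of these same libraries, so the comparison of the genotypes in CD8 T cells describes the choice and supports nothing further. What the choice did not use directly is whether the genes were found in the same cells, which other genes those cells expressed, and how the genes stood in regulatory T cells (Tregs). The sharing of cells and the other genes of those cells are still not independent of the choice. The libraries differed in their mix of CD8 states, and a choice of genes low in the knockout favors genes of the states that it had fewer of.

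The wild-type library is of the strain NOD.*Foxp3*-*EGFP*, and the knockout library is of NOD.*Tnfrsf9*-/-.*Foxp3*-*EGFP*, in which CD137, a costimulatory receptor, is deleted globally. NOD mice develop autoimmune diabetes, both strains carry the same reporter that turns *Foxp3*-expressing cells green, and islet-infiltrating cells were pooled from 6 females of 9 to 10 weeks per strain. CD8 T cells (CD45.1+ and CD8+, without CD4 or markers of other lineages) and GFP+ CD4+ Tregs were sorted and loaded together on the Chromium 3′ version 2 chemistry. With 1 library from 1 pool per genotype there is no replicate, so no test was made: the intervals given are exact 95% ones for counting error alone, and neither mouse-to-mouse spread nor a difference between library preparations can be told apart from the genotype.

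A cell was used if it had between 200 and 5000 genes and no more than 20% of its unique molecular identifiers (UMIs, which count captured transcripts) from mitochondrial genes. No doublet caller was run. A cell was counted as CD8 when it held at least 2 *Cd8a* and *Cd8b1* UMIs and none of *Cd4* or *Foxp3*, and as a Treg when it held no *Cd8a* or *Cd8b1* UMI and at least 1 of *Cd4*, *Foxp3*, *Il2ra* or *Ikzf2*. This gave 891 wild-type and 1200 knockout CD8 cells with 7014920 and 7908290 UMIs (medians of 6076 and 5275 per cell), and 1552 and 1444 Tregs with 8888924 and 8152788 UMIs (medians of 4302 and 4308.5). Summed over the 5 CD3 and CD8 genes, CD8 cells reached 4931 and 4486 CPM (UMIs scaled to a common total for each class) and Tregs 3760 and 3064 CPM. The 7 Treg genes reached 4413 and 4422 CPM in Tregs against 606 and 581 CPM in CD8 cells. Both lists hold genes that define the classes, so these values follow in part from the gating and do not check it. *Foxp3* itself was caught in 13.2% of the wild-type Tregs, and in 19.5% of those from the knockout. The libraries shared 16 barcodes, 5 of them in wild-type and 6 in knockout CD8 cells, and without them the counts of genes given below as at least 2-fold lower were the same. *Tnfrsf9*, the gene that encodes CD137, held 747 UMIs in wild-type and 253 in knockout CD8 cells (106 and 32.0 CPM, a log2 ratio of knockout over wild type of -1.73, interval -1.95 to -1.53) and 2993 and 898 UMIs in Tregs. The sources used here do not say which exons are deleted, so whether the remaining 3′ reads lie outside them was not tested.

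The 9 genes are not known as one pathway. *Penk* encodes proenkephalin, the precursor of the enkephalin opioid peptides, and *Prss2* a trypsinogen that pancreatic acinar cells secrete and that lies inside the T cell receptor beta locus. *Ppp2r2c* encodes a regulatory B subunit of the phosphatase PP2A, *A930011G23Rik* is a long noncoding RNA, and *Dscam* encodes a neuronal cell adhesion molecule. *Wfdc18* encodes a small secreted protein with a WAP domain, *Hgsnat* the lysosomal enzyme that acetylates heparan sulfate, *Ctla2a* an inhibitor of cathepsin L-like proteases found in activated T cells, and *Cd7* a surface protein of T and NK cells.

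In the GENCODE M21 annotation of GRCm38, the build of the counts, *Penk* lies at chr4:4133531-4138819 and *Prss2* at chr6:41521787-41525079, with 239796 bases between it and the variable segment *Trbv30* before it and 8121 bases to the diversity segment *Trbd1* after it. *Ppp2r2c* lies at chr5:36868513-36955078, *Dscam* at chr16:96590840-97170752, *Wfdc18* at chr11:83709015-83711348, *Hgsnat* at chr8:25944453-25976753, *Ctla2a* at chr13:60934155-60936625 and *Cd7* at chr11:121036747-121039418. The identifier behind the *A930011G23Rik* row (ENSMUSG00000089809) is named *Rasgef1b* in that annotation (chr5:99217426-99729065), and RefSeq gives the noncoding gene at chr5:99297244-99729060. The table has a separate *Rasgef1b* row, which held 22 wild-type and 40 knockout UMIs in CD8 cells, and reads from the overlap of the 2 genes cannot be assigned with certainty.

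RefSeq start windows (GRCm38.p6) were at hand for 5 of the 9 genes. The 250 bases before the start are shown for the trypsinogen of the receptor locus (chr6:41521526-41521775, plus strand), for the phosphatase subunit whose level differed most between the cell classes (chr5:36868260-36868509, plus strand), for the adhesion molecule that shared cells with *Penk* (chr16:97170736-97170985, minus strand) and for *Ctla2a* (chr13:60936567-60936816, minus strand, the one of its 2 overlapping windows that reaches less far upstream). Each runs 5′ to 3′ on the strand of its gene, and capitals mark a TATA box (TATAAA) or an AP-1 site (TGANTCA).
Prss2: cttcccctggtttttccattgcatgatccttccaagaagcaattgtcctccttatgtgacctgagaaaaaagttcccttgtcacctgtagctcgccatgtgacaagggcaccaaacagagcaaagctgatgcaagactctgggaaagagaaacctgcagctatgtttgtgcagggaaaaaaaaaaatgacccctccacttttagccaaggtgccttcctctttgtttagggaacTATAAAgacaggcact
Ppp2r2c: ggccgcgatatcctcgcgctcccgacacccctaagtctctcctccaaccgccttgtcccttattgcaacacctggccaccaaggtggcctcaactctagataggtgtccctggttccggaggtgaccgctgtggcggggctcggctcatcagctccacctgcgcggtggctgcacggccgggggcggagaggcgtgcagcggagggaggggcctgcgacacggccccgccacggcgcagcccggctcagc
Dscam: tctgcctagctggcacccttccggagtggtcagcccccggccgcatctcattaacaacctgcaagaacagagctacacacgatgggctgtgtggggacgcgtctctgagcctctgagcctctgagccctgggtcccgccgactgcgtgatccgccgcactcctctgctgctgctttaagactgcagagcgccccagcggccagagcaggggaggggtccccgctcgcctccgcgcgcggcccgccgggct
Ctla2a: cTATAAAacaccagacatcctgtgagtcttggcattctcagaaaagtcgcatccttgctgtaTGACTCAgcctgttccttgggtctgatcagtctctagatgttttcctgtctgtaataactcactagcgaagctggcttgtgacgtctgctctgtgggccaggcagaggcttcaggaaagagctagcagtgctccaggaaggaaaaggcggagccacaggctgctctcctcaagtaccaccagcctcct

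TATAAA stood 16 bases before the start of *Prss2* and 31 bases before that of *Wfdc18*, and once in each window of *Ctla2a*, which also held the AP-1 letters. Of all 32851 windows of 300 bases, searched on both strands, 13.6% held TATAAA and 7.81% TGANTCA. *Ppp2r2c* and *Dscam* held neither, and none of the 6 member windows held a CRE (TGACGTCA), RUNX (TGTGGT) or E2F (TTTCGCGC) match, found in 1.79%, 16.8% and 0.323% of all windows. Their windows were 72.7% and 70% G and C, against a median of 52.7% over all windows and 45.7% for *Prss2*. No motif was shared by all 5 genes. The AP-1 and TATA letters do not overlap in these windows, and a match describes the letters only.

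In CD8 cells all 9 genes were lower in the knockout library, as the choice required. *Penk* held 233 UMIs in 77 wild-type cells (33.2 CPM, interval 29.1 to 37.8) and 55 in 28 knockout cells (6.95 CPM, 5.24 to 9.05), a log2 ratio of -2.26 (-2.71 to -1.83). *Prss2* held 388 UMIs in 47 wild-type cells and 105 in 29 knockout cells (55.3 and 13.3 CPM, -2.06, -2.38 to -1.74). *Ppp2r2c* held 276 UMIs in 176 wild-type cells and 72 in 63 knockout cells (39.3 and 9.10 CPM, -2.11, -2.51 to -1.73). These genes reached their levels in different ways: of the 47 *Prss2*+ wild-type cells 34 held at least 3 UMIs, of the 77 *Penk*+ cells 25 held at least 3 and 37 a single one, and the *Ppp2r2c* UMIs sat in many cells with at most 5 each. *A930011G23Rik* held 540 UMIs in 267 wild-type cells and 168 in 84 knockout cells (77.0 and 21.2 CPM, -1.86, -2.12 to -1.61). *Ctla2a* held 1897 and 732 UMIs in 416 and 261 cells (270 and 92.6 CPM, -1.55, -1.67 to -1.42).

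*Hgsnat*, *Cd7* and *Dscam* stood less than 2-fold apart. *Hgsnat* held 2565 UMIs in 458 wild-type cells and 1632 in 404 knockout cells (366 and 206 CPM, -0.83, -0.92 to -0.74). *Cd7* held 3873 and 2747 UMIs in 554 and 605 cells (552 and 347 CPM, -0.67, -0.74 to -0.60). *Dscam* held 87 UMIs in 37 wild-type cells and 60 in 32 knockout cells (12.4 and 7.59 CPM, -0.71, -1.21 to -0.22). Counted together, 6 of the 9 genes were at least 2-fold lower in knockout CD8 cells, against 2.82% of the 11083 genes with at least 20 UMIs, and the whole interval lay below 0 for 9 of 9, against 20.7% of those genes, while the median gene stood at 0.04. The members' ranks from the lowest ratio ran from 2 (*Wfdc18*) to 719 (*Cd7*) of 11083. The plot of levels by class and library shows all 4 values of each gene.

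**Figure D1:**
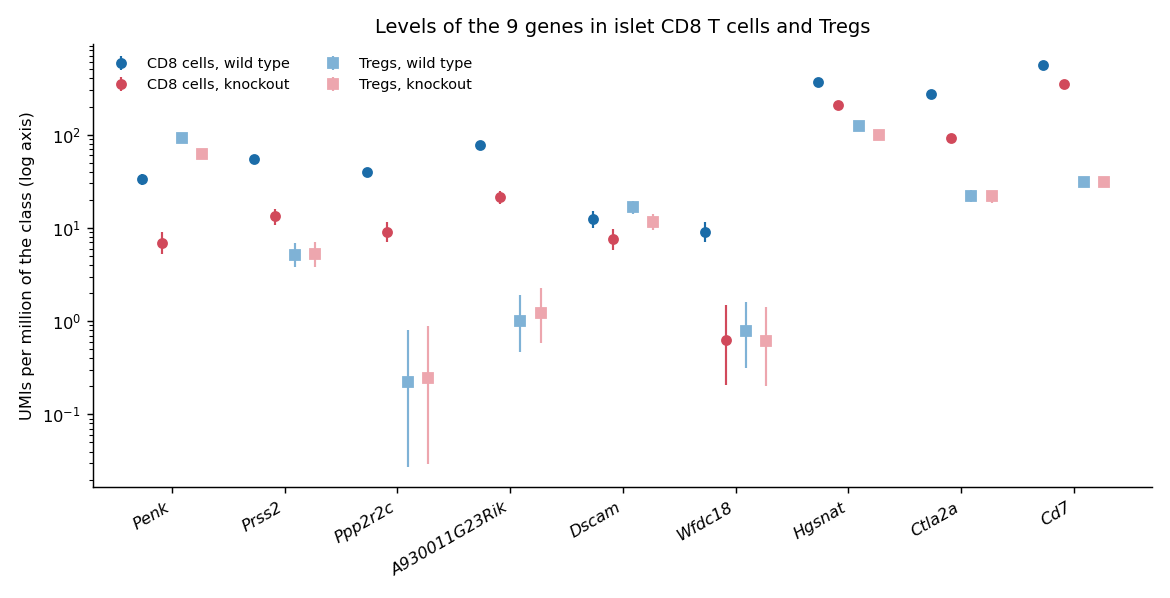
CPM, UMIs scaled to the class total (log axis), for each of the 9 genes in CD8 cells (circles) and Tregs (squares) of the wild-type (blue) and knockout (red) library; bars are 95% exact Poisson intervals, which cover counting error only. Each gene's wild-type CD8 value stands above its knockout CD8 value, while the Treg squares of *Prss2*, *Ctla2a* and *Cd7* overlap and those of *Penk* do not; the wild-type CD8 value of *Wfdc18* rests on 1 cell.

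*Wfdc18* is a special case. It held 64 UMIs in 6 wild-type CD8 cells and 5 in 4 knockout cells (9.12 and 0.632 CPM, -3.85, -5.52 to -2.55), the second lowest ratio of all genes tested. Of the 64, 57 were in 1 cell, and without that cell the counts were 7 and 5 and the log2 ratio -0.66 (-2.66 to 1.21). Leaving out the top cell of each gene left 5 of the 8 genes that still had 20 UMIs at least 2-fold lower. That cell had 5976 UMIs and 2275 genes, near the class median in depth, and held 21 UMIs of *Ctla2a*, 6 of *Cd7*, 4 of *A930011G23Rik*, 4 of *Hgsnat* and 3 of *Prss2*, with none of *Penk*, *Ppp2r2c* or *Dscam*. The related *Wfdc17* and *Slpi* were at 0 in it.

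How the UMIs were spread over cells set the genes apart. The cell with most *Prss2* held 52 wild-type UMIs, and its knockout counterpart 24, and 8 wild-type or 3 knockout cells held at least 50% of its UMIs. At least 3 *Prss2* UMIs were counted in 34 of the 891 wild-type CD8 cells (3.82%, 2.66 to 5.29%), in 8 of the 1200 of the knockout (0.667%, 0.288 to 1.31%), and in 3 and 1 Tregs. Cells with a single *Prss2* UMI were about as frequent in both genotypes and classes, at 11 wild-type (1.23%) and 19 knockout CD8 cells (1.58%) and 17 (1.1%) and 30 (2.08%) Tregs. The difference between the genotypes in *Prss2* therefore lay in the cells with several UMIs. For *Penk* the top cells held 25 and 6 UMIs, and 25 wild-type and 6 knockout CD8 cells held at least 3. For *Ppp2r2c* 108 of 176 positive wild-type cells and 56 of 63 positive knockout cells held a single UMI, and no cell held more than 5 or 3.

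**Figure D2:**
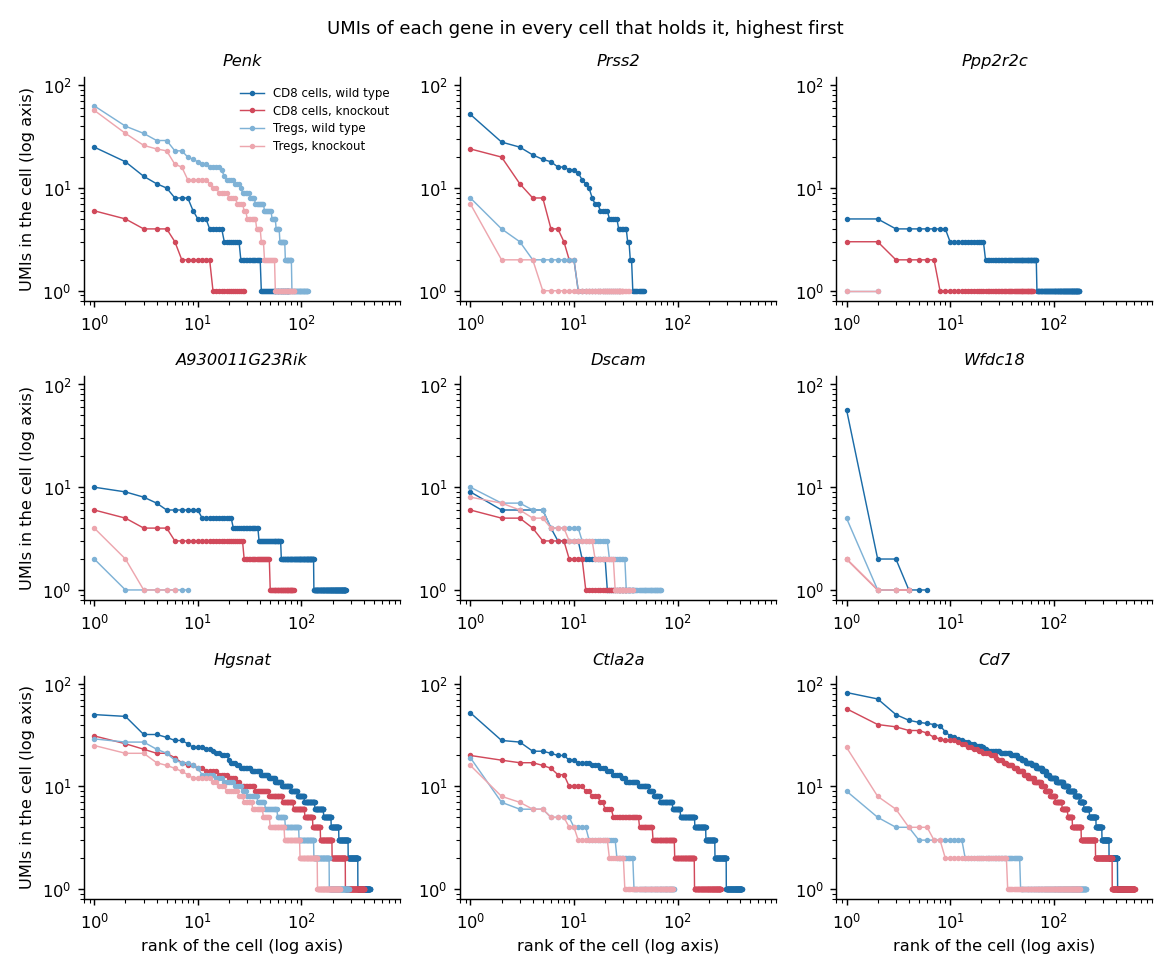
UMIs of each gene in each cell that holds it (y, log axis), with the cells ranked from the highest (x, log axis), for CD8 cells and Tregs of both libraries. *Prss2* has a shoulder of wild-type CD8 cells with many UMIs that is short in the knockout and nearly absent in Tregs, *Ppp2r2c* and *A930011G23Rik* have almost no Tregs, *Penk* reaches its highest counts in Tregs, and *Wfdc18* has 1 wild-type cell with 57 UMIs.

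Since wild-type CD8 cells were the deeper ones, shares of positive cells were also compared at an equal depth of 2000 randomly drawn UMIs per cell, without 17 wild-type and 16 knockout CD8 cells and 76 and 55 Tregs of lower depth. For *Ppp2r2c* the share was 19.8% and 5.25% before thinning, and 6.86% and 1.1% after it. For *A930011G23Rik* it was 30% and 7% before, and 12.5% and 3.63% after. The thinned shares of the other genes in wild-type and knockout CD8 cells were 3.66% and 1.18% for *Penk*, 3.55% and 1.27% for *Prss2*, 2.06% and 1.1% for *Dscam*, 31.7% and 19.3% for *Hgsnat*, 27.8% and 11.1% for *Ctla2a* and 42.7% and 30.2% for *Cd7*. In Tregs, as the background in which free RNA would still be caught, the thinned shares of *Ppp2r2c* (0.0678% and 0.0720%) and *A930011G23Rik* (0.203% and 0.0720%) were each 1 to 3 cells, far below those of CD8 cells in either library. The knockout CD8 share of *Prss2*, by contrast, was near its Treg shares of 0.949% and 1.08%, and is at the level of background for detection per cell. *Penk* and *Dscam* were held by as many or more Tregs (5.42% and 3.53%, 2.51% and 1.37%), which are therefore no background for these genes.

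The Tregs of the same libraries gave a different picture. *Penk* held 822 UMIs in 115 wild-type Tregs and 510 in 85 knockout Tregs (92.5 and 62.6 CPM, a log2 ratio of -0.56, -0.73 to -0.40), so that both Treg values stood above both CD8 values and their intervals did not overlap any other. By state gate the *Penk* ratio in Tregs was -0.11 (-0.50 to 0.28) among naïve-gate cells, 0.90 (0.48 to 1.33, 73 and 137 UMIs) among proliferating ones, higher in the knockout, and -0.89 (-1.10 to -0.68) in the rest (gates as defined for CD8 cells in the account of states). *Dscam* held 148 and 95 UMIs in Tregs (16.6 and 11.7 CPM, -0.51, -0.90 to -0.13), and *Hgsnat* 1093 and 809 (123 and 99.2 CPM, -0.31, -0.44 to -0.18). *Prss2* held 46 and 43 UMIs (5.17 and 5.27 CPM, 0.03), *Ctla2a* 196 and 177 (22.1 and 21.7 CPM, -0.02) and *Cd7* 276 and 254 (31.0 and 31.2 CPM, 0.00). *Ppp2r2c* was held by 2 UMIs in each library's Tregs, *A930011G23Rik* by 9 and 10, and *Wfdc18* by 7 and 5, under the minimum of 20 for a ratio. Of the 6 genes with enough UMIs, 0 were at least 2-fold lower in knockout Tregs, against 0.998% of 11428 genes, and 3 had the whole interval below 0, against 11.8%. Whether the change in CD8 cells differs from that in Tregs was not tested, as each is 1 library pair.

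Ordered by level, *Penk* ran from wild-type Tregs through knockout Tregs and wild-type CD8 cells to knockout CD8 cells, with every neighbour apart by more than its interval. *Prss2*, *Ppp2r2c*, *A930011G23Rik*, *Hgsnat*, *Ctla2a* and *Cd7* were highest in wild-type CD8 cells, then in knockout CD8 cells, and lowest in Tregs, where for *Prss2*, *Ppp2r2c*, *A930011G23Rik*, *Ctla2a* and *Cd7* the intervals of the 2 genotypes overlapped. *Dscam* was highest in wild-type Tregs, and its intervals there (14.1 to 19.6 CPM), in wild-type CD8 cells (9.93 to 15.3) and in knockout Tregs (9.43 to 14.2) overlapped in part, as did the last with that in knockout CD8 cells (5.79 to 9.77). *Wfdc18* had overlapping intervals everywhere but in wild-type CD8 cells.

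The 2 libraries differed in their mix of CD8 states, and most of the genes are not evenly spread over those states. Cells with at least 2 UMIs of *Mki67*, *Top2a*, *Birc5*, *Cdk1* and *Ube2c* (the proliferation gate) numbered 218 among the 891 wild-type CD8 cells (24.5%) and 132 among the 1200 of the knockout (11%). Of the rest, cells with at least 2 UMIs over a set of naïve genes that includes *Ccr7* and *Lef1* (the naïve gate) were 269 (30.2%) and 721 (60.1%), and cells in neither gate 404 (45.3%) and 347 (28.9%). The median depth was 13286 and 12238 UMIs in the proliferation gate and between 5097 and 5552 in the others. The gates were set on UMIs and were not tested against other ways to name states.

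*Penk*, *Prss2*, *Ppp2r2c*, *A930011G23Rik* and *Ctla2a* were also lower in the knockout within each of the 3 gates, with intervals below 0. Among cells of neither gate the ratios of *Penk*, *Ppp2r2c* and *A930011G23Rik* were less negative than over all CD8 cells (-2.26, -2.11 and -1.86). The part of the mix of states in these ratios was not tested. In the proliferation gate *A930011G23Rik* was found in 97 of 218 wild-type cells (44.5%) and 7 of 132 knockout cells (5.30%), a log2 ratio of CPM of -2.92, and in the cells of neither gate in 141 of 404 (34.9%) and 51 of 347 (14.7%), a ratio of -1.09. *Ppp2r2c* was found in 100 of 218 (45.9%) and 25 of 132 (18.9%) cells of the proliferation gate (-1.82), and in 68 of 404 (16.8%) and 35 of 347 (10.1%) of neither gate (-0.91). *Penk* was found in 33 of 218 and 7 of 132 cells of the proliferation gate (-2.91) and in 36 of 404 and 16 of 347 of neither gate (-1.20). In the naïve gate *Penk* stood at -2.15 (-3.51 to -0.89, 16 and 9 UMIs), *Ppp2r2c* at -3.32 (-5.79 to -1.43, 12 and 3 UMIs) and *A930011G23Rik* at -1.35 (-1.96 to -0.75), and whether the gates differ was not tested. For *Prss2* the ratios were -2.28 in the naïve gate, -1.38 in the proliferation gate and -1.88 in neither, and for *Ctla2a* -1.69, -1.29 and -1.24.

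*Hgsnat* stood at -0.56, -0.62 and -0.60 in the 3 gates. *Cd7*, by contrast, stood at -0.38 in the naïve gate, -0.48 in the proliferation gate and 0.09 in neither, and *Dscam* at 0.13, 0.02 and -0.52 with intervals that included 0 in each. Weighting the knockout cells to the wild-type mix of gates, which was chosen after seeing the data, gave -1.89 for *Penk*, -1.70 for *Prss2*, -1.49 for *Ppp2r2c*, -1.66 for *A930011G23Rik* and -1.32 for *Ctla2a*, against -0.60 for *Hgsnat*, -0.26 for *Dscam* and -0.24 for *Cd7*. At least 2-fold lower were 4 of the 6 members tested in the naïve gate (background 2.2%), 5 of 8 in the proliferation gate (1.8%) and 5 of 9 in neither gate (1.37%, with *Wfdc18* and its 1 cell), all of which come from the contrast that chose the genes. The plot of ratios by state gate shows each with its interval.

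**Figure D3:**
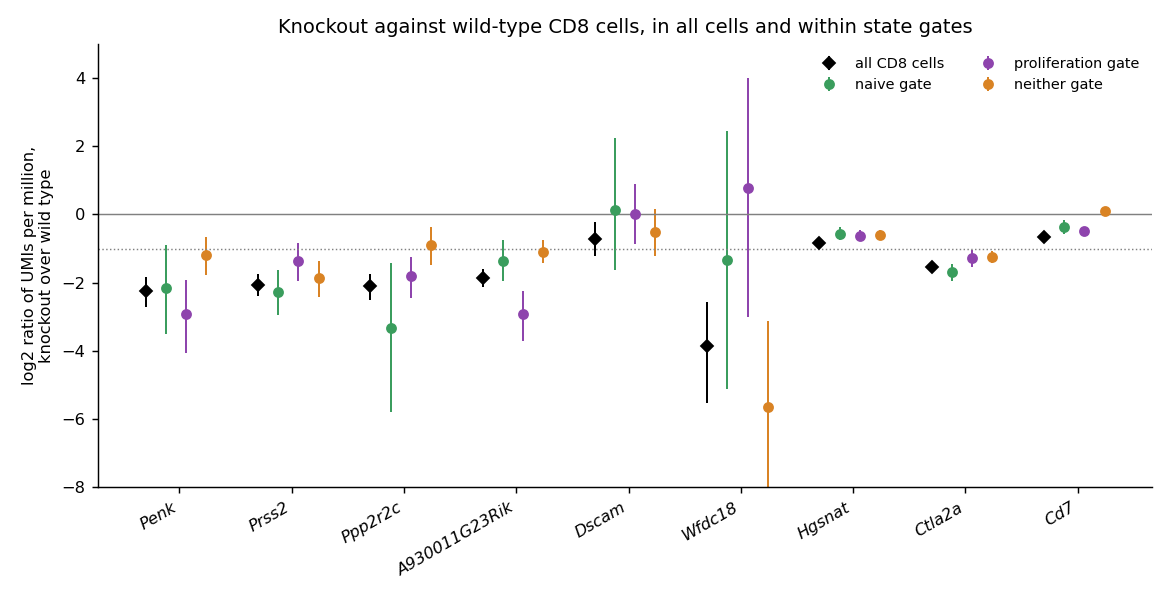
Log2 ratio of CPM, knockout over wild type, for each gene in all CD8 cells (black diamonds) and within the naïve gate (green), the proliferation gate (purple) and neither gate (orange); bars are 95% exact intervals, drawn no further than -8 and 4, the solid line marks 0 and the dotted line a 2-fold lower level. *Penk*, *Prss2*, *A930011G23Rik* and *Ctla2a* lie below the dotted line in every gate, *Hgsnat* lies between the lines in each gate, *Cd7* does so in the naïve and proliferation gates and stands at 0.09 in neither, and the gate intervals of *Dscam* include 0; the *Wfdc18* values rest on few UMIs.

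Whether the scarce genes shared cells was asked with the 6 that were found in fewer than 1 of 3 wild-type CD8 cells, which leaves out *Hgsnat*, *Ctla2a* and *Cd7*. In wild-type CD8 cells 477 held none of the 6, 258 held 1, 122 held 2, 29 held 3, 4 held 4 and 1 held 5. At least 2 were thus found in 156 of 891 wild-type CD8 cells (17.5%, 15.1 to 20.2%) and in 37 of 1200 knockout CD8 cells (3.08%, 2.18 to 4.23%). In Tregs the shares were 21 of 1552 (1.35%) and 11 of 1444 (0.762%). The count in CD8 cells follows in part from the lower levels that chose the genes, and deeper cells have more chances to hold any gene.

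Each pair was therefore set against the number of shared cells expected if its 2 genes were independent among cells of like depth (within 10 groups by UMIs per cell). Cells are not replicates, so the ratio of observed to expected cells is a description. In wild-type CD8 cells *Penk* and *Dscam* shared 12 cells where 3.73 were expected, a ratio of 3.22 (1.66 to 5.62). *Penk* and *Ppp2r2c* shared 32 against 19.6 (1.64, 1.12 to 2.31), *A930011G23Rik* and *Dscam* 23 against 12.1 (1.90, 1.21 to 2.86) and *Ppp2r2c* and *A930011G23Rik* 79 against 58.6 (1.35, 1.07 to 1.68). *Dscam* and *Wfdc18* shared 3 of the 6 *Wfdc18* cells where 0.247 was expected (12.1, 2.50 to 35.5). These 5 of the 15 pairs had intervals above 1, and 0 had one below 1.

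*Prss2*, with 47 positive cells, had wide intervals that included 1 for all 5 of its pairs. Its cells held *Penk* in 4 cases where 4.15 were expected (0.96, 0.26 to 2.47), *Ppp2r2c* in 11 against 9.80 and *A930011G23Rik* in 19 against 14.5 (1.31). They held *Dscam* in 3 against 2.07 (1.45) and *Wfdc18* in 1 against 0.303 (3.30). *Penk* with *A930011G23Rik* (1.34, 0.92 to 1.88) also included 1, so these counts do not set *Prss2* apart. The genes left out of the 6 joined the *A930011G23Rik* cells: *Ctla2a* shared 190 of its 267 cells where 130 were expected (1.46, 1.26 to 1.68), *Cd7* 212 against 171 (1.24, 1.08 to 1.42) and *Hgsnat* 179 against 144 (1.24, 1.07 to 1.44). *Ctla2a* also shared 123 cells with *Ppp2r2c* against 96.6 (1.27, 1.06 to 1.52).

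In knockout CD8 cells, where few positive cells were left, 3 of the 15 pairs had intervals above 1 (7 of all 36), and each of the 3 is among the wild-type 5. Here too the share among pairs of other genes was not measured. *Penk* and *Dscam* shared 5 cells against 1.14 expected (4.38, 1.42 to 10.2), *Ppp2r2c* and *A930011G23Rik* 13 against 5.01 (2.60, 1.38 to 4.44) and *A930011G23Rik* and *Dscam* 7 against 2.48 (2.83, 1.14 to 5.83). *Penk* and *Ppp2r2c* shared 1 cell against 2.12 (0.47, 0.01 to 2.62). In Tregs *Penk* and *Dscam* again shared cells, 17 against 6.22 in the wild type (2.73, 1.59 to 4.37) and 6 against 2.65 in the knockout (2.26, 0.83 to 4.92). Among wild-type CD8 cells in neither state gate, *Penk* and *Dscam* alone of the 15 pairs kept an interval above 1 (7 cells against 2.29, 3.06, 1.23 to 6.31). There the ratio was 1.57 (0.75 to 2.89) for *Penk* and *Ppp2r2c*, 1.55 (0.80 to 2.70) for *A930011G23Rik* and *Dscam* and 1.13 (0.74 to 1.65) for *Ppp2r2c* and *A930011G23Rik*.

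**Figure D4:**
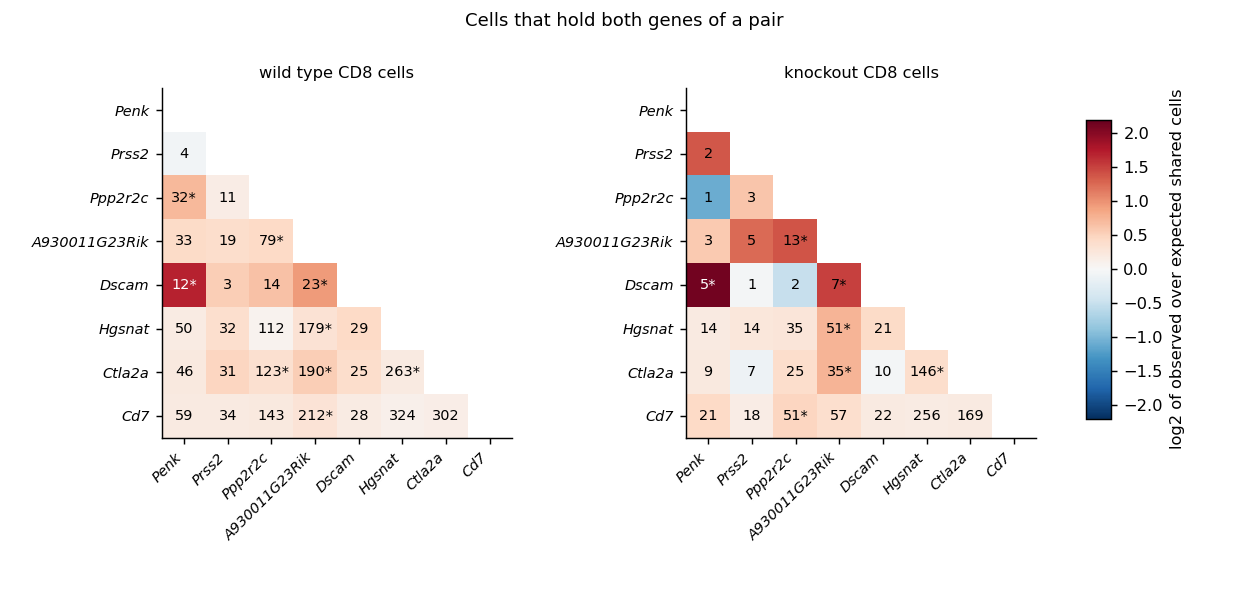
Cells that hold both genes of a pair in wild-type (left) and knockout (right) CD8 cells, for 8 of the 9 genes (*Wfdc18*, with 6 and 4 cells, is left out); numbers are observed cells, the color is the log2 of observed over expected cells at like depth, and an asterisk marks an interval above 1. *Penk* with *Dscam* is the darkest wild-type square, and the squares of *Prss2* carry no asterisk.

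Each gene was also looked at in cells chosen by the other 5. Wild-type CD8 cells with at least 2 of the others had more *Dscam* than cells with none (28.0 against 4.90 CPM, log2 ratio 2.51, 1.66 to 3.44), more *Ppp2r2c* (79.2 against 23.6 CPM, 1.75, 1.23 to 2.25), more *Penk* (39.8 against 13.2 CPM, 1.60, 0.99 to 2.21) and more *A930011G23Rik* (102 against 64.1 CPM, 0.67, 0.28 to 1.05). For *Prss2* the values were 62.8 and 52.1 CPM (0.27, -0.11 to 0.64). In knockout CD8 cells, *A930011G23Rik* (2.28, 1.36 to 3.09) and *Dscam* (2.61, 1.19 to 3.80) were higher in such cells. They rested on 14 and 7 UMIs, held by 21.4% of 14 and 11.1% of 27 cells. *Penk* (0.19, -2.91 to 2.13) and *Ppp2r2c* (1.15, -1.17 to 2.78) rested on 2 and 3 UMIs. *Prss2*, unlike in the wild type, stood at 47.0 against 11.1 CPM (2.08, 1.1 to 2.95), but its 13 UMIs were held by only 6.90% of the 29 cells. A few cells thus carry these knockout values.

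The 156 wild-type CD8 cells with at least 2 of the 6 held more *Tox*+ effector genes and fewer naïve genes than the others. Summed over its 7 genes, the naïve list (among them *Lef1*, *Ccr7*, *Tcf7*, *Klf2*, *Igfbp4* and *S1pr1*) was at 181 CPM in them and 957 CPM in the 477 cells with none of the 6, a log2 ratio of -2.40 (-2.58 to -2.23), and 6 of its 7 genes were at least 2-fold lower, against 5.63% of 9379 genes tested. All 5 proliferation genes were at least 2-fold higher, against 4.98% of genes, with a summed log2 ratio of 1.54 (1.43 to 1.64). The list of *Tox*+ effector genes stood at 0.90 (0.88 to 0.92), and 5 of its 13 genes were at least 2-fold higher: *Klre1* (1.84) and *Klrc1* (1.46), which encode NK receptors, *Entpd1* (1.27), which encodes the ectoenzyme CD39, the chemokine *Ccl5* (1.08) and *Havcr2* (1.01), which encodes TIM3. *Ccl5* held 65.2% of the UMIs of that list in these cells, and without it, a choice made after seeing the data, the list stood at 0.62 (0.59 to 0.66). The median gene stood at 0.08. The cells with at least 2 of the 6 were deeper than the others, with medians of 9455 and 5749 UMIs, and that depth moves with the choice.

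Within the list of effector memory genes the members went apart. The granzyme gene *Gzmk* (1.37) and *Ccl5* were higher, and *Il7r* (-2.67), which encodes the interleukin-7 receptor, and *Gzma* (-1.37) lower. Its sum stood at 1.00, but *Ccl5* held 94.3% of it, and the other 5 genes summed to 0.07 (-0.03 to 0.17). The progenitor list stood at 0.42, with *Tox* higher (0.74) and *Tcf7* lower (-0.91), and the residency list at -0.44, with the integrin gene *Itgae* at -2.18. Genes of recent T cell receptor signaling stood at -0.18 (-0.30 to -0.06). Of the 3 members not used to choose the cells, *Ctla2a* was higher (399 against 190 CPM, 1.07, 0.91 to 1.24), as was *Cd7* (752 against 384 CPM, 0.97, 0.85 to 1.08), and *Hgsnat* slightly so (402 against 324 CPM, 0.31, 0.17 to 0.45). The acinar list, measured beside *Prss2* further on, was at 27.3 CPM in these cells and 13.7 CPM in those with none (45 and 44 UMIs, 0.36 to 1.63 on the log2 scale), with the elastase gene *Cela1* at 1.73 (0.82 to 2.69). It stood at 0.86 (0.13 to 1.51) in the knockout, and its part in these profiles was not tested.

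Among cells in neither state gate (69 with at least 2 of the 6 and 195 with none), the *Tox*+ effector list still stood at 0.89 (0.86 to 0.92), the effector memory genes other than *Ccl5* at -0.22 (-0.40 to -0.05), *Ctla2a* at 1.32 and *Cd7* at 1.01, but the naïve list stood at 0.12 (-0.21 to 0.45), proliferation at 0.09 and *Hgsnat* at -0.00. When the cells were chosen after thinning to 2000 UMIs (39 cells with at least 2 and 665 with none), the *Tox*+ effector list stood at 0.88 and the naïve list at -1.06, while the proliferation list turned to -0.76 (-1.05 to -0.48). Without *Ccl5* the *Tox*+ effector list stood at 0.44 among the cells of neither gate and 0.56 among those chosen after thinning, and the effector memory genes at -0.34 (-0.57 to -0.12) in the latter.

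In knockout CD8 cells the 37 cells with at least 2 of the 6, against 1001 with none, had the same direction in these lists: -2.24 for naïve, 1.41 for *Tox*+ effector (0.89 without *Ccl5*) and 1.60 for proliferation. The effector memory genes other than *Ccl5* stood at 0.19 (0.00 to 0.37). The proliferation list turned to -1.96 in the knockout cells with at least 3 of the 6 (2 UMIs), to -4.14 in those chosen after thinning (1 UMI) and to -0.90 (-3.22 to 0.71) in those of neither gate (3 UMIs). Unlike in the wild type, the recently activated list was higher in the knockout cells (0.82, 0.65 to 0.98). *Cd7* was higher in them as in the wild type (1.79, 1.61 to 1.96), with *Ctla2a* at 0.68. Among knockout cells in neither state gate (21 against 245), the *Tox*+ effector list stood at 0.68 (0.63 to 0.74) and at 0.20 without *Ccl5*, the effector memory genes other than *Ccl5* stood at -0.71, and progenitor genes turned to -0.31.

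Among all genes, the 12 with the highest ratio in the wild-type cells with at least 2 of the 6 were led by the transcription factor gene *Foxb1* (29 UMIs in 15 of 156 cells against 3 UMIs in 477, 4.24, 2.55 to 6.59). *Map2* (3.13), *Susd2* (2.96), *Nrarp* (2.73), *2900011O08Rik* (2.72) and *Sept4* (2.61) followed, all with few UMIs, and then the mitotic genes *Aspm* (2.55) and *Espl1* (2.47). *4933427D14Rik*, *1700001O22Rik*, *Slc27a4* and *Prr5l* completed the 12 with 2.40 to 2.33, *Prr5l* with 88 against 34 UMIs. *Foxb1* was found in the same direction in the knockout (5 against 4 UMIs, 4.49, 2.27 to 6.82) and in wild-type cells of neither gate (3.57, 1.73 to 6.01). The 12 lowest included *Dapl1* (1 against 611 UMIs, -8.29, -13.6 to -5.81) and 2 genes of the naïve list, *Ccr7* (-4.51) and *Igfbp4*. The latter was at 0 against 259 UMIs, a log2 ratio of -5.47 when 3 counts stand for the 0, with an upper limit of -5.16. *Cpne4*, *Spry1*, *Auts2*, *Pdzrn3*, *Rapgef4*, *Gm20696*, *Pik3ip1*, *Il6ra* and *Tgtp1* were the others.

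By Pearson correlation of log-scaled UMIs over the 891 wild-type CD8 cells, the genes most like the sum of the 6 were *Ccl5* (r = 0.42), *Tox* (0.40), *Klre1* (0.38), *Trps1* (0.34), *Fyn* (0.33), *Eomes* (0.33), *Ctla2a* (0.32) and *Sh2d1a* (0.32). These values are descriptions over cells of 1 library that share its depth, and the sum of the 6 is weighted toward the most frequent of them, *A930011G23Rik*.

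Taken gene by gene, the positive cells were not of one kind. The naïve list was lower in the positive wild-type CD8 cells of each of the 8 genes plotted, from -2.4 for *Ppp2r2c* to -0.6 for *Prss2*. The summed progenitor list was highest in *Penk*+ and *Dscam*+ cells (0.96 and 1.06), with *Xcl1* holding the most UMIs of it. In *Penk*+ cells the chemokine gene *Xcl1* was higher (1835 against 550 CPM, 1.74, 1.65 to 1.83), as were *Tnfrsf9* itself (236 against 90.7 CPM, 1.38, 1.13 to 1.62), the follicle-homing receptor gene *Cxcr5* (15 against 61 UMIs, 1.01, 0.09 to 1.84) and *Tox* (0.59), while *Id3* (-1.92), *Tcf7* (-0.88) and *Slamf6* (-0.57) were lower. In *Dscam*+ cells the 6 genes of the progenitor list stood between 0.46 (*Tox*) and 1.73 (*Cxcr5*), with *Xcl1* at 1.69, and the cells had more *Nrn1* (2.19, 1.67 to 2.69), a gene of recently activated cells, and little *Cxcr6* (-2.19, -2.80 to -1.65), a receptor of effector cells. In the knockout, *Penk*+ cells had *Xcl1* at 0.80 and *Tnfrsf9* at -0.18 (-1.51 to 0.89), and *Dscam*+ cells *Xcl1* at 1.21 and *Nrn1* at 1.15.

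*Ppp2r2c*+ cells were marked by proliferation and TIM3. In them the proliferation list stood at 1.31, *Cdk1* at 1.71 (284 UMIs in 176 positive and 218 in the other cells), *Mki67* at 1.33 and *Havcr2* at 1.03, while *Ccr7* was at -3.35. The same genes stood at 2.18, 1.86, 2.52 and -5.22 in knockout cells. Positive cells had a median of 10752 UMIs and the others 5904, so the depth of dividing cells moves with these values.

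*A930011G23Rik*+ cells had more *Gzmk* (1.16, 1.00 to 1.32), *Ccl5* (0.97) and *Klre1* (0.96), and less *Tnfrsf9* (72.5 against 123 CPM, -0.76, -1.02 to -0.51) and *Xcl1* (-0.89), the opposite of *Penk*+ cells for these 2 genes. In the knockout *Xcl1* was again lower (-0.72), and *Tnfrsf9* stood at -0.03 (-0.81 to 0.67). *Ctla2a*+ cells were alike, with *Klre1* at 1.58, *Havcr2* at 1.54 and *Gzmk* at 1.40. Its neighbor *Ctla2b*, a near copy, was found with it in 111 of the 127 cells that held *Ctla2b*, and reads of the 2 genes may be shared between them. *Cd7*+ cells had more *Ube2c* (2.02) and the adaptor genes of innate receptors *Fcer1g* (65 against 3 UMIs, 3.30, 1.69 to 5.62) and *Tyrobp* (394 against 22 UMIs, 3.03, 2.41 to 3.72). Each was found in only 12 of the 554 *Cd7*+ cells and 1 of the 337 others, so that few cells carry these ratios, as they do in the knockout (2.15 in 9 and 1 cells and 1.58 in 12 and 3 cells). *Hgsnat*+ cells had more *Ube2c* (1.62) and *Mki67* (1.39), but they were deeper, with medians of 7337.5 UMIs against 5486 in the others. Per UMI *Hgsnat* was not highest in the wild-type proliferation gate, at 379 CPM against 453 in neither gate and 213 in the naïve gate. The plot of state lists sets these profiles side by side.

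**Figure D5:**
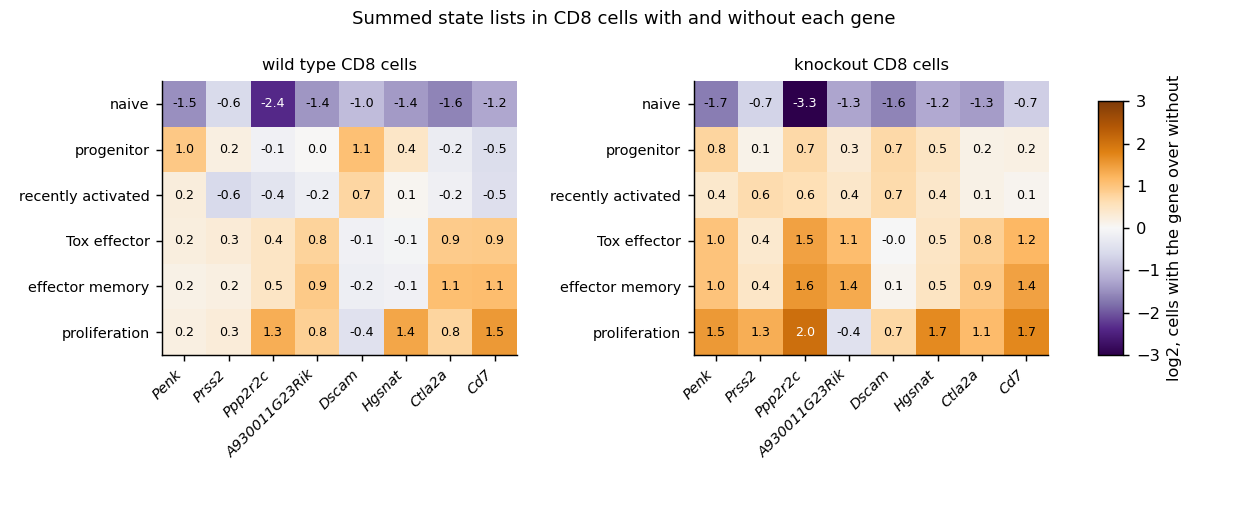
Log2 ratio of the summed CPM of 6 gene lists (rows) between CD8 cells with and without each gene (columns), in the wild type (left) and knockout (right); the printed values carry the color, and *Wfdc18* is left out. The naïve row is below 0 throughout, the progenitor row is highest for *Penk* and *Dscam* in the wild type, and the proliferation row is high for *Ppp2r2c*, *Hgsnat* and *Cd7*.

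*Prss2* is best known as an acinar gene, so pancreatic RNA was measured beside it. The 20 other acinar genes summed to 20.1 CPM in wild-type and 38.2 CPM in knockout CD8 cells and to 36.1 and 72.1 CPM in Tregs, higher in the knockout in both classes, where *Prss2* was lower or equal. The related trypsin genes *Try4*, *Try5*, *Try10* and *Prss1* held 7 UMIs in wild-type and 49 in knockout CD8 cells, and 2 of these 4 were at 0 in both. In the 34 wild-type CD8 cells with at least 3 *Prss2* UMIs the acinar list held 10 UMIs (36.2 CPM, 17.4 to 66.5) against 19.1 CPM in cells with no *Prss2*, and in the 8 knockout cells 3 UMIs (34.5 CPM, 7.11 to 101). Cells with any *Prss2* UMI, which include those with a single one, had 37.2 against 19.1 CPM of the list in wild-type CD8 cells (14 UMIs in 47 cells), 169 against 34.2 CPM in knockout CD8 cells, 122 against 34.2 CPM in wild-type Tregs and 409 against 62.6 CPM in knockout Tregs. The part of acinar RNA in the *Prss2* level was not tested beyond these values. No T cell receptor gene segment is among the genes listed, so transcripts of the locus around *Prss2* were not measured.

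The 34 wild-type cells with at least 3 *Prss2* UMIs, all taken by the CD8 gate, had the CD3 and CD8 genes at 5923 CPM, against 4872 CPM in the 844 cells with none. They fell into all state gates, with 4 in the naïve gate, 12 in the proliferation gate and 18 in neither. Their *Tox*+ effector list stood at 0.41 (0.37 to 0.45) and the naïve list at -1.07 (-1.41 to -0.74). Among *Prss2*+ cells as a whole *Gzmb* was higher (415 against 168 CPM, 1.30, 1.05 to 1.55), as was *Klrc1* (1.1, 0.83 to 1.37). In the knockout these 2 genes stood at 0.37 (-0.07 to 0.78) and -0.10 (-0.89 to 0.59), and of its 8 cells 3 were in the naïve gate, 3 in the proliferation gate and 2 in neither, with the *Tox*+ effector list at -0.18.

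All taken by the Treg gate, the 115 and 85 *Penk*+ Tregs had the Treg list at log2 0.05 and 0.11 against the others. Proliferation genes were higher in them in both genotypes (0.90, 0.79 to 1.02, and 0.71, 0.58 to 0.83), as were genes of recent activation (0.22 and 0.40), and naïve genes were lower (-0.54 and -0.89). *Penk*+ Tregs were the deeper ones, with medians of 5272 and 5239 UMIs against 4217 and 4194 in the others, and 18 of the 115 and 24 of the 85 lay in the proliferation gate, whose cells are deeper still. Per UMI *Penk* was not highest in that gate, at 28.4 CPM in the wild type against 50.6 in the naïve gate and 154 in neither. *Dscam*+ Tregs had the same directions, with 0.29 and 0.83 for proliferation and -0.34 and -0.51 for naïve genes.

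The relatives and partners of the 9 genes gave mixed values. Of 12 PP2A subunit genes, 11 had enough UMIs in CD8 cells, 0 were 2-fold apart, 3 had intervals above 0, against 24.6% of all genes tested (*Ppp2r5a* at 0.60, *Ppp2r2a* at 0.33 and *Ppp2r5e* at 0.23) and 1 below, against 20.7% (*Ppp2r1a*, the scaffold subunit, at -0.38). Of 9 genes of enkephalin processing and opioid receptors 3 were measured: *Oprm1*, the mu opioid receptor gene, was higher in knockout CD8 cells (228 and 477 UMIs, 0.89, 0.66 to 1.13), as was the convertase gene *Furin* (0.71, 0.40 to 1.02), and *Pomc* stood at -0.49 (-1.33 to 0.33). Of the 6 other enzymes of heparan sulfate breakdown, 2 had intervals below 0 (the same background of 20.7%), *Naglu* (-0.92, -1.70 to -0.17) and *Gusb* (-0.34, -0.63 to -0.06). Of 6 cathepsin genes and *Ctla2b*, 5 of 7 had intervals below 0, against 20.7% of all genes tested. *Ctla2b* was furthest (186 and 65 UMIs, -1.69, -2.12 to -1.27), with *Ctsb* at -0.77, *Ctsd* at -0.59, *Ctsl* at -0.48 and *Ctsw* at -0.29. The *Ctsl* value rests on few cells, as 38 of its 93 wild-type UMIs were in 2 of the 156 cells with at least 2 of the 6 scarce genes. *Lgals1*, which encodes the CD7 ligand galectin-1, stood at -0.90 (-0.94 to -0.86). *Slpi*, the WAP family gene with enough UMIs, was higher in the knockout (174 and 958 UMIs, 2.29, 2.05 to 2.53). Few wild-type cells held it, with 35 UMIs in 4 of the 156 cells with at least 2 of the 6 scarce genes. In those with none, 84 UMIs were in 18 of 477 cells, so its interval for counting error is too narrow. None of the *Dscam* partners and relatives reached 20 UMIs.

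For comparison, the state lists over all CD8 cells moved with the mix of states: 7 of 7 naïve genes had intervals above 0 in the knockout (background 24.6%), and 5 of 5 proliferation genes and 11 of 13 *Tox*+ effector genes had intervals below 0 (20.7%). Markers of B cells, myeloid cells and endocrine cells were low in CD8 cells of both libraries. B cell genes summed to 4.70 and 8.60 CPM (2 and 1 of 4 genes at 0), myeloid genes to 17.1 and 8.98 (1 and 0 of 5) and endocrine genes to 13.7 and 11.1 (2 and 1 of 9). Innate-like T cell genes were higher, at 225 and 192 CPM (5 and 4 of 10 at 0), against 8.10 and 10.7 CPM in Tregs. The part of these lists in the values of the 9 genes was not tested.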

How the data were processed

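Droplet libraries (Chromium 3′ version 2) were used, 1 per genotype, assigned from the sample titles. The authors deposited counts, the UMIs per gene and called barcode written by Cell Ranger 7.0.0 on mm10 (per the submitters' notes), neither normalized nor filtered. The 9 genes and all gene lists were chosen with earlier results of these data known. Cells were filtered and gated as stated in the report. One gene that enters the naïve gate and the naïve list is not reported here. No doublet caller was run, and cells over 5000 genes and cells with UMIs of both lineages were left out of the classes. For each class of each library, summed UMIs were scaled to CPM and given exact Poisson intervals. Shares have Clopper-Pearson intervals and log2 ratios exact conditional binomial intervals, all at 95%. A 0 in a ratio was replaced by 3 counts. Ratios over all genes used those with at least 20 UMIs, and background shares are over them. Thinning used a seed of 11.

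Genes named are the 9, those of the lists, the 12 highest and 12 lowest in cells with at least 2 of the 6 genes (20 UMIs, and 10 cells of the higher group) and the 8 most like their sum (found in 20 cells). *Trbv30*, *Trbd1* and *Tnfrsf9* and the related *Rasgef1b* were added, and the list genes named for cells with 1 member were picked after their values were seen. Python 3.11.15, numpy 2.4.6, scipy 1.17.1, pandas 2.3.3, matplotlib 3.10.9 and, for TMM factors only, edgeR 4.0.16 in R 4.3.3 were used, and interval steps were tested on simulated data. Alternatives were TMM scaling, equal weight per cell, stricter filters and gates, thinning, leaving out top cells or *Ccl5*, and state gates.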

Additional observations from a re-analysis of the deposited data

Results flagged for a closer look

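In cells that the limits on genes and mitochondrial UMIs removed (90 wild-type and 76 knockout cells, which enter no comparison above), *Cd7* stood at 208 CPM in the knockout and 130 CPM in the wild type, the reverse of its order in CD8 cells. *Prss2* stood at 40.4 CPM in the removed knockout cells, with 74 UMIs in 2 cells, and at 5.57 CPM in the wild-type ones, with 12 UMIs also in 2 cells. The acinar list was at 504 CPM in the removed knockout cells and 13.5 CPM in the removed wild-type cells. Both genes are given because the knockout value outside the main comparison exceeded the wild-type value, and neither difference was tested.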

How the results depend on the processing

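With 1 library per genotype, nothing here measures the spread between mice, and rare genes are limited by counts of a few UMIs. No paired analysis was possible because each genotype has 1 library, and no result comes from a test. The number of the 9 genes at least 2-fold lower in knockout CD8 cells (6) ran from 5 to 8 over 12 alternatives, 2 of them chosen after seeing the data, and that in Tregs stayed at 0 over 8. The share of CD8 cells with at least 2 of the 6 genes (17.5% wild type and 3.08% knockout) was 3.82% and 0.333% for at least 3 genes, 28.6% and 9.5% for any of *Penk*, *Prss2* and *Ppp2r2c*, 29.9% and 7.75% for at least 2 UMIs, 4.46% and 0.760% after thinning to 2000 UMIs, and 12.5% and 1.81% under the stricter gate (at least 3 *Cd8a* and *Cd8b1* UMIs and no Treg gene). In the state gates, used alone after seeing the data, it was 35.8% and 8.33% (proliferation), 3.35% and 0.694% (naïve) and 17.1% and 6.05% (neither). The count of pairs with intervals above 1 (5 of 15) was 3 after thinning, 1 in cells of neither gate and 1 in the proliferation gate. Directions turned for *Dscam* in Tregs with a *Foxp3* UMI (0.14), for the naïve list outside the state gates (0.12), and, with cells chosen after thinning, for the proliferation (-0.76) and recently activated lists (0.12). The cause was not tested. The log2 ratios of single genes in CD8 cells reversed under none of their 10 alternatives each, but the genes were chosen for that direction, so this supports nothing further. The values left their main interval in 1 (*A930011G23Rik*) to 6 (*Cd7* and *Ctla2a*) of the 10. The least negative value was -0.16 for *Cd7* and -0.18 for *Dscam*.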

Other observations

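CD8-gated and Treg-gated cells left 271 cells of each library in neither class. In these, *Penk* held 123 UMIs in the wild type (66.6 CPM), *Prss2* 24 (13.0 CPM), *Ppp2r2c* 14 (7.58 CPM) and *A930011G23Rik* 41 (22.2 CPM).

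Genes of the TGF-beta response, which the comparisons above do not use, had intervals above 0 for 5 of 6 in knockout CD8 cells (median log2 0.39), against 24.6% of all genes tested, and for 4 of 6 in knockout Tregs (0.26), against 21.1%, while their sum was lower in the wild-type CD8 cells with at least 2 of the 6 scarce genes (339 against 420 CPM, -0.31, -0.45 to -0.16).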
